A study of Homo sapiens with 12 samples.

Results

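The mRNAs carried by polysomes in 2 triple-negative breast cancer cell lines were compared in their control state. The members were the 2 empty-vector (EV) libraries of BT549 and the 2 EV libraries of MDA-MB-231, which were 4 of the 12 libraries in the series and were picked out by their labels. BT549 came from an invasive ductal carcinoma and MDA-MB-231 from the pleural effusion of a metastatic breast adenocarcinoma. Neither group had TRMT112 altered, the methyltransferase cofactor that the study knocked down (KD) in MDA-MB-231 and SUM159 and overexpressed (OE) in BT549. According to the methods of the study, BT549 EV cells had been transfected with the pReceiver-M02 empty vector and selected with G418, and MDA-MB-231 EV cells with a non-silencing shRNA in the GIPZ vector and selected with puromycin. BT549 grew in RPMI medium and MDA-MB-231 in DMEM/F-12, with different shares of fetal bovine serum. Line, vector, selection and medium therefore changed together between the groups and cannot be told apart. Whether the 2 libraries of a group came from separate cultures is not stated, so each p-value measures only the spread between libraries.

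Polysomes are mRNAs bound by several ribosomes, and after cycloheximide has frozen elongation they sediment toward the bottom of a sucrose gradient, so that their RNA reports which messages a cell is translating. A count in such a library depends both on how much of an mRNA a cell holds and on how many of its copies carry ribosomes. No library of total RNA was part of the comparison, so these quantities cannot be told apart here. Both lines lack hormone receptor expression and carry mesenchymal features, and they are known to differ in their driver lesions: MDA-MB-231 has mutated BRAF and has lost CDKN2A, while BT549 has lost RB1.

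The 4 libraries held 24541477 and 24223605 expected counts in BT549 EV and 23020077 and 23630478 in MDA-MB-231 EV. Values are given as normalized counts, that is counts scaled by TMM to a library of 23859960, and log2 fold changes are BT549 EV minus MDA-MB-231 EV throughout. Of 16538 genes tested with edgeR's quasi-likelihood test, 13152 (79.5%) passed a Benjamini-Hochberg adjusted p of 0.05 and are termed called: 6463 (39.1%) were higher and 6689 (40.4%) were lower in BT549 EV. The SE beside a log2 fold change is its size divided by the square root of the test's F statistic. It is too small for genes with few counts in a group, for which it was left out. The replicates of each group differed by a median of 0.066 on the log2 scale, and 2576 of the called genes differed by less than 0.5. Scaling by library size alone, in place of TMM, moved the median log2 fold change of all genes from -0.03 to -0.34 and the calls to 5099 higher and 8196 lower, so small differences are to be read against that shift. A difference of 1 or more on the log2 scale was met by 3557 (21.5%) higher and 3957 (23.9%) lower genes. A list of genes in which about 4 in 10 members went either way was thus like the rest of the transcriptome. Rows existed only for transcripts with counts in BT549, and 4143 of 20020 annotated protein-coding symbols had no row, so an mRNA present in MDA-MB-231 alone could be missing while the opposite could not. For the same reason the numbers of higher and lower genes are not to be compared with each other.

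Genes known to be lost in each line gave the labels their first check. CDKN2A (chr9:21967752-21995301), which encodes the CDK4 and CDK6 inhibitor p16, had 32333 and 32061 normalized counts in BT549 EV and 0 in both MDA-MB-231 EV libraries, which made it at least 11601-fold higher against a floor of 3 counts per library. Its neighbour CDKN2B, a related inhibitor, had 4468 and 4564 counts in BT549 EV and 0 in both MDA-MB-231 EV libraries. MTAP, the enzyme of methionine salvage, had 3802 and 3934 and again 0. RB1 (chr13:48303744-48599436), the retinoblastoma protein that holds E2F factors in check, went the other way, with 32.8 and 60.8 counts in BT549 EV against 848 and 1021 in MDA-MB-231 EV (log2 fold change -4.32 ± 0.17 SE, adjusted p = 9.04e-17, edgeR). All 4 genes thus stood in the direction known for these lines. The BT549 OE libraries stood on the same side of MDA-MB-231 EV in CDKN2A (27117 and 25792 counts) and RB1. Their RB1 counts of 106 and 169 were above those of BT549 EV.

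TRMT112 itself was slightly lower in BT549 EV, with 3069.5 and 3081 counts against 4138 and 3929.7 (-0.39 ± 0.039 SE, adjusted p = 3.35e-09). Of its 7 partners, the enzymes it holds in a stable and active form, METTL5, the 18S rRNA m6A methyltransferase, was lowest relative to MDA-MB-231 EV with 685 and 642 against 2264 and 2068 counts (-1.71), followed by the tRNA methyltransferase TRMT11 (-1.45), THUMPD2 (-0.61) and ALKBH8 (-0.59). BUD23, which methylates a guanosine of 18S rRNA, was higher with 8167 and 7943 against 4656 and 4856 counts (0.76), as was THUMPD3 (0.40), which was not called with library size alone. N6AMT1, which methylates termination factor eRF1, was not called (0.13). Of these 8 genes 2 were higher and 5 lower (1 higher and 5 lower with library size alone), so 7 were called, beside 79.5% of all genes tested.

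The markers of hormone-dependent breast cells went both ways. ESR1, the estrogen receptor gene, had no row, which says nothing of its level in MDA-MB-231, and PGR, the progesterone receptor gene, had 3.28 and 9.95 counts in BT549 EV and 0 in MDA-MB-231 EV, too few to be tested. Of the 15 listed hormone receptor and luminal genes, 10 were tested, of which 5 were higher and 5 lower (4 higher and 5 lower with library size alone, median 0.02, beside -0.03 for all genes). The luminal regulator GATA3 had 1399.8 and 1355 against 20.7 and 27.3 (5.83), whereas its partner FOXA1 had 0 and 3.32 against 116 and 105 (33.6-fold lower against the floor). ERBB2, which encodes HER2, was moderately higher in BT549 EV (3292 and 3414 against 1445 and 1499, 1.19). Of 18 markers of immune, endothelial and nerve cells, 8 had no row and 7 were tested, and the summed level of the list was 4181 to 4304 counts in BT549 EV and 4316 to 4418 in MDA-MB-231 EV. Nearly all of that was CD68, a lysosomal protein that tumor cells also make, with 4138 and 4264 against 4370.4 and 4269 counts. CD3E, CD3D, MS4A1, VWF, KDR and SOX10 were among those with no row, PTPRC had 4.37 and 6.63 against 1.88 and 2.73 counts, and the called members TEK, CD163, PECAM1 and CDH5 stayed at or below 19.7 counts in every library of both groups. The call of CD163 (1.09 and 4.42 against 0 and 0 counts) was lost when BT549 EV library 2 or either MDA-MB-231 EV library was left out.

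The silent stretch at 9p21 in MDA-MB-231 could be followed gene by gene. In chromosomal order, HACD4, KLHL9, MIR31HG, MTAP, CDKN2A-DT, CDKN2A, CDKN2B-AS1, CDKN2B, DMRTA1 and ELAVL2 were 10 tested genes in a row with 0 counts in both MDA-MB-231 EV libraries, spanning chr9:20999509-23826337 in GRCh38. CDKN2B-AS1 overlaps CDKN2A and CDKN2B, and although the methods of the study name a stranded kit, the strand setting of the counting is not given, so reads of these genes cannot be told apart. The gene just before them, FOCAD, had 13.1 and 8.20 counts in MDA-MB-231 EV against 187 and 161 in BT549 EV, and the gene just after them, TUSC1, had 305 and 406 against 2791 and 2837. All 10 were detected in BT549 EV, at levels from 10.9 and 15.5 counts for MIR31HG and 17.5 and 9.95 for DMRTA1 to 32333 and 32061 for CDKN2A. Further genes of the same arm were also at 0 in both MDA-MB-231 EV libraries: BNC2, CNTLN and SH3GL2, which followed each other among the tested genes, and, on the other side of the stretch, TEK and LINGO2. Genes between these and the stretch, such as RRAGA (658 and 647 counts) and PLAA (483 and 468), were detected in MDA-MB-231 EV. Of the 14 genes listed for this region, 12 were tested and all 12 were higher in BT549 EV, with a median of 8.79. Most of these values are folds against 0 counts: the median was 5.16 with genes at the floor set to their bound, and relative to all genes tested it became 7.21 without BT549 EV library 1, 6.80 without MDA-MB-231 EV library 1 and 6.78 without MDA-MB-231 EV library 2. The ribosomal protein gene RPS6 of this list had 39698 and 39278 against 6613 and 6480.5 counts (2.59). The type I interferon genes lie in the same interval, and IFNB1 had 8.74 and 17.7 counts in BT549 EV and 0 in MDA-MB-231 EV, too few for a test. No such run of silent genes lay around RB1 in BT549 EV. Around RB1, 5 of 12 tested genes were higher and 6 lower, and ITM2B next to it was higher (1.01). LPAR6, a receptor gene inside an intron of RB1, had 329 and 326 counts in BT549 EV against 0 and 0, at least 118-fold higher.

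**Figure D1:**
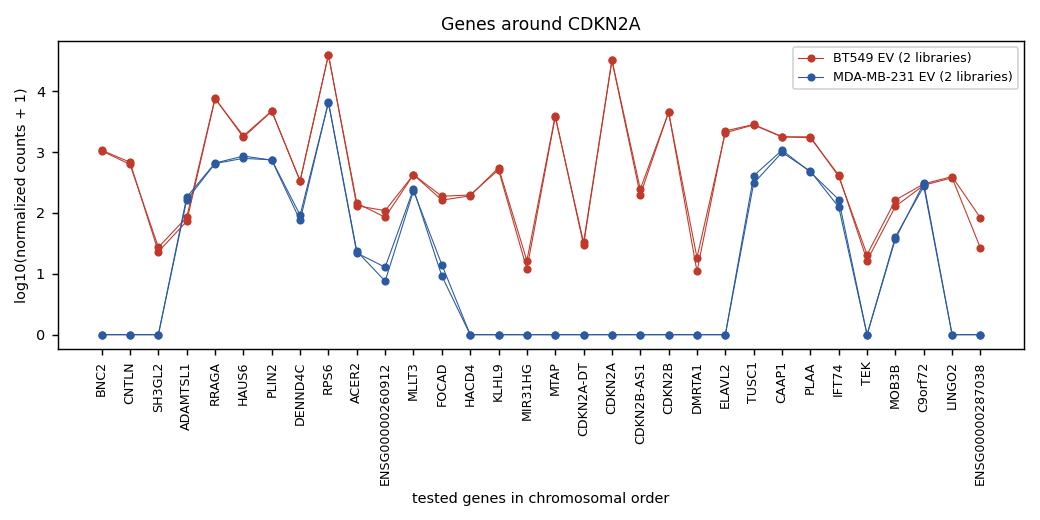
Normalized counts (log10 of the count plus 1) of the tested genes around CDKN2A in chromosomal order, with a line for each of the 2 BT549 EV libraries (red) and the 2 MDA-MB-231 EV libraries (blue). From HACD4 to ELAVL2 both MDA-MB-231 EV libraries lie at 0, while BT549 EV reaches 32333 and 32061 counts at CDKN2A.

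The interferon system separated the groups. Interferons bind cell surface receptors whose JAK kinases phosphorylate STAT factors, and with IRF9 these enter the nucleus and bind the interferon-stimulated response element, a pair of GAAA repeats in the promoters of antiviral genes. All 64 listed interferon-stimulated genes were tested, and 59 were higher and 4 lower in BT549 EV, against 39.1% and 40.4% of all genes. Their median log2 fold change was 3.31, and their summed level was 430931 to 435349 counts in BT549 EV and 47089 to 47855 in MDA-MB-231 EV.

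Promoters of 5 members of this list and of CD274, an antigen presentation gene, are shown because they hold the letters of a motif known from interferon-responsive promoters. The motif searched was GAAA, any 2 bases (NN) and GAAA again, on either strand, in the 250 bases before the RefSeq start (GRCh38.p14). It was found in 29 of the 48 listed genes that had a window (60.4%) and in 403 of 11856 tested genes with a window (3.40%). The stretches below are written 5′ to 3′ on the strand of the gene, with the matching letters in capitals (matches that overlap are joined), and overlap no exon of the GENCODE annotation.
ISG15, chr1:1013359-1013424 (plus strand): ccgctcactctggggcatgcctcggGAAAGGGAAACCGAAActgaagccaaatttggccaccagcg
IFI6, chr1:27672251-27672373 (minus strand): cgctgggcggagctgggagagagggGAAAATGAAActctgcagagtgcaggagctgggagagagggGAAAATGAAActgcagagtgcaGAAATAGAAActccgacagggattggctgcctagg
IFI27, chr14:94110603-94110675 (plus strand): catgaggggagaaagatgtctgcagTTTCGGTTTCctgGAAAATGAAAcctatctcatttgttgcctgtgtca
IFIT3, chr10:89327816-89327909 (plus strand): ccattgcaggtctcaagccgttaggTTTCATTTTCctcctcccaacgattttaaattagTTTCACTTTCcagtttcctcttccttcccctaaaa
IFITM3, chr11:320861-320937 (minus strand): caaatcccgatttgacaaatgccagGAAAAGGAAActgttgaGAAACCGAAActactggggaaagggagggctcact
CD274, chr9:5450309-5450374 (plus strand): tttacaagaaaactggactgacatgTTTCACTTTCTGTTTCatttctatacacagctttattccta
The match is a description of the sequence and no measure of binding. The genes with these promoters did not move as a block, as IFITM3 and CD274 below show.

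IFI6, a mitochondrial antiviral protein, had 122699 and 118387 counts in BT549 EV against 460 and 423 in MDA-MB-231 EV (log2 fold change 8.09 ± 0.050 SE, adjusted p = 9.87e-32, edgeR). IFI27, its relative, had 16968 and 16241 against 7.51 and 7.29 (11.11). ISG15, the ubiquitin-like modifier, had 31510 and 31435 against 1889 and 1893 (4.06). The groups were far apart in all 3 genes, and the replicates within a group were close. Among the enzymes that sense or degrade viral RNA, OAS1 had 6083 and 5892 counts against 0, at least 2158-fold higher, and OAS2 (9.15) and OAS3 (7.42) followed. RSAD2, which encodes the antiviral enzyme viperin, had 5573 and 5794 counts in BT549 EV and 0 in MDA-MB-231 EV, and its neighbour CMPK2, a nucleotide kinase, had 4134 and 4422 and 0. The membrane proteins BST2 (tetherin), with 23608 and 23113 against 107 and 124 counts (7.66), and IFITM1, with 44871 and 46465 against 295 and 283 (7.31), belonged to the same part of the list, as did the GTPase MX1 (8.71).

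Further members were present in both lines and, apart from IFIT1, which was near ISG15, differed less than those named above. IFIT1, which binds RNA without a methylated cap, had 5763 and 5826 against 322 and 328 counts (4.16), and IFIT3 6042 and 6049 against 753 and 657 (3.10). The transcription factor STAT2 (1.04) and EIF2AK2, the RNA-dependent kinase PKR (1.59), were higher by smaller amounts, and IFITM3 had 20877 and 20713 against 17449 and 16951 counts (0.27, and -0.04 with library size alone). Only 4 members were lower in BT549 EV, namely IFITM2 with 8.74 and 11.1 against 6970.1 and 6885 counts (-9.43), LGALS3BP (-1.56), TRIM5 (-1.39) and SP100 (-0.29). IFITM1, IFITM2 and IFITM3 are close paralogs whose reads can be shared, so their separate levels are uncertain.

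Upstream of these genes, 14 of 19 tested interferon receptors and regulators were higher and 3 lower in BT549 EV (12 higher and 6 lower with library size alone, median 1.24). The receptor chains IFNAR1 (0.61), IFNAR2 (0.77), IFNGR1 (1.38) and IFNGR2 (2.04) were all higher. JAK2 had 1333 and 1305 against 59.1 and 76.6 counts (4.28), IRF1 4004 and 3882 against 384 and 446 (3.25) and ADAR, the RNA-editing enzyme with an interferon-inducible form, 14304 and 14159 against 2269 and 2252 (2.65). The RNA sensor TLR3 was also higher with 358 and 409 against 11.3 and 10.9 (5.10), whereas the DNA-sensing pair CGAS (-0.39) and STING1 (-0.71) was lower. TYK2, the kinase of the interferon alpha receptor, was called lower by a small amount (-0.09), and the call was lost when any 1 of the 4 libraries was left out. MAVS and IRF3, which join RNA sensing to interferon transcription, were not called (0.05 and 0.04).

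Antigen presentation followed with 22 of 28 tested members higher and 4 lower (median 1.92). The shares were 78.6% and 14.3%, beside 39.1% and 40.4% of all genes. Class I molecules consist of a heavy chain and B2M, and peptides cut by the immunoproteasome reach them through the TAP transporter. HLA-C had 65542 and 63722 counts in BT549 EV against 1242 and 1339 (5.65), HLA-B 38205 and 39144 against 6015 and 6162 (2.67), and B2M 67932 and 67681 against 16319 and 16580 (2.04). The heavy chains are polymorphic and similar to each other, so the share of reads placed on each can depend on the alleles of the line. TAP1 was higher by 4.18 with 23537 and 22599 against 1262 and 1289.5 counts, and its tapasin-related editor TAPBPL by 6.14. The immunoproteasome subunits PSMB9 (3.30) and PSMB8 (2.24) were higher too, and the chaperone CALR had 91785 and 89557 against 16073 and 16183 counts (2.49). CD274, which encodes the checkpoint ligand PD-L1, was the opposite, with 164 and 175 counts in BT549 EV against 2479 and 2505 in MDA-MB-231 EV (-3.88 ± 0.080 SE, adjusted p = 2.54e-22), although the same motif stands in its promoter. Of the class II genes, HLA-DMA (6.56 and 4.42 against 59.1 and 60.1, -3.41) and the invariant chain CD74 (2.19 and 3.32 against 34.7 and 15.5) were low in both lines and lower in BT549 EV.

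These levels were not shared by the BT549 libraries of the series as a whole. In the 2 BT549 OE libraries, which carry the TRMT112 expression clone, IFI6 had 919.5 and 834 counts, ISG15 881 and 781, IFI27 3.32 and 11.3, BST2 16.6 and 21.5 and HLA-B 79.6 and 71.2. Set against the same MDA-MB-231 EV libraries, BT549 OE had 13 of the 64 interferon-stimulated genes higher and 41 lower, beside 40.1% and 41.1% of all genes, and 7 of 28 antigen presentation genes higher and 17 lower. Both comparisons use the same MDA-MB-231 EV libraries and are given side by side only. MX2 was an exception, with 1012 and 1094 counts in BT549 EV and 1339.5 and 1202 in BT549 OE. In SUM159 EV, the other triple-negative line, IFI6 had 545 and 591 counts, ISG15 256 and 278 and BST2 9337 and 9604. The high levels of IFI6 and ISG15 were thus found in the BT549 EV libraries and neither in BT549 OE nor in SUM159 EV, while BST2 was also high in SUM159 EV.

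**Figure D2:**
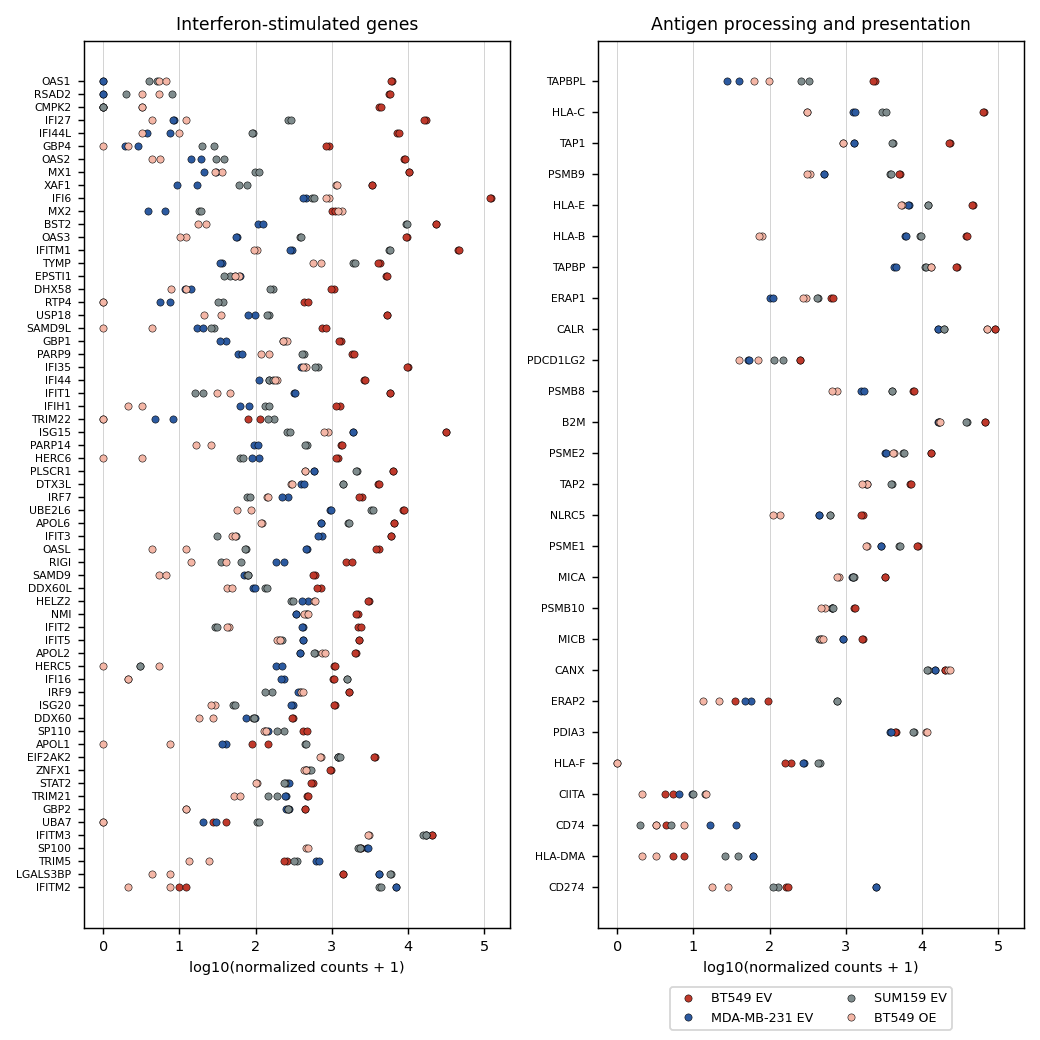
Normalized counts (log10 of the count plus 1) of the tested interferon-stimulated genes (left, 64 genes) and antigen presentation genes (right, 28 genes), 1 of each not drawn, ordered by log2 fold change, with 2 points per gene for each of BT549 EV, MDA-MB-231 EV, SUM159 EV and BT549 OE. The BT549 EV points lie to the right of the MDA-MB-231 EV points in most genes of both panels, for example in IFI6 at 122699 and 118387 against 460 and 423 counts, while BT549 OE had 919.5 and 834.

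Chemokines and NF-kB cytokines were split between the lines, with 13 of 33 tested members higher and 16 lower in BT549 EV (median 0.00). The shares were 39.4% and 48.5%, beside 39.1% and 40.4% of all genes. The T-cell chemokine CCL5 had 8317 and 8006 counts in BT549 EV against 14.1 and 4.56 (9.77), and CXCL5 had 3018 and 3225 against 0.939 and 0, 1125-fold higher against the floor. The mitochondrial dismutase SOD2, an NF-kB target, had 97840 and 100400 against 4718 and 4829 counts (4.38), and the macrophage factor CSF1 was higher by 3.10. Other cytokines were lower in BT549 EV. IL11, of the IL6 family, had 5.46 and 9.95 counts in BT549 EV against 11294 and 11522 in MDA-MB-231 EV (-10.51, adjusted p = 3.90e-29). LIF had 163 and 141 against 2394 and 2226 (-3.92) and IL1A 1.09 and 1.11 against 255 and 235 (74.4-fold lower against the floor). TNFAIP2, a TNF-induced gene, had 15.3 and 11.1 against 2645 and 2724 (-7.66). The NF-kB inhibitor gene NFKBIA itself was not called (0.09).

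Most of the extracellular matrix genes tested were higher in BT549 EV. Fibrillar collagens form the scaffold of connective tissue, and fibroblast-like cells secrete them with the glycoproteins that bind them. Of 23 tested collagen genes, 15 were higher and 4 lower (median 1.41), and of 42 matrix glycoproteins and laminins 28 were higher and 10 lower (median 1.61, or 1.40 with genes at the floor set to their bound). More than 3 counts in a library of each group were found for 17 of the collagens and 31 of the glycoproteins. The summed level of the collagens was 15308 to 15381 counts in BT549 EV and 6267 to 6413 in MDA-MB-231 EV, whereas that of the glycoproteins was nearer, at 67723 to 68338 and 59897 to 60977. COL1A2 had 4956 and 4876 counts against 1.88 and 0.911 and COL1A1 2012 and 2019 against 94.8 and 128 (4.17). The proteoglycan SPOCK1 had 6177 and 6172 against 1.88 and 2.73, SPARC, which binds collagen, 11767 and 11792 against 223 and 185 (5.85), and fibulin FBLN2 10702 and 10344 against 30.0 and 37.4 (8.28). Fibronectin (FN1) differed less, by 1.67. The chains of type VI collagen were unlike each other, with COL6A3 higher (4.95) and COL6A2 lower (-2.89) in BT549 EV, and COL13A1 (-2.26) and COL8A1 (-3.08) were lower as well. The BT549 OE libraries held more type I collagen than BT549 EV, with 57150 and 55101 counts of COL1A1 and 20375 and 19846 of COL1A2. The lower glycoproteins included the perlecan gene HSPG2 (-4.58) and the matricellular CCN1 and CCN2, described with the YAP-TEAD targets.

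Proteases that cut the matrix were higher in BT549 EV in 26 of 35 tested genes and lower in 7 (median 1.14). CTSB, which encodes the lysosomal cysteine protease cathepsin B, had 562267 and 567720 counts in BT549 EV against 3943 and 4024 in MDA-MB-231 EV (7.15 ± 0.028 SE, adjusted p = 1.60e-35), and this gene alone held 2.12% of all BT549 EV counts. CTSL, cathepsin L, had 133139 and 131382 against 994 and 1041 (7.02). The membrane-bound collagenase MMP14, which activates MMP2, had 13548 and 13434 against 1645 and 1660.5 (3.03), and MMP2 had 404 and 383 against 0, at least 142-fold higher. SERPINE2, an inhibitor of thrombin and urokinase, was higher with 40984 and 41801 against 1287 and 1280.4 (5.01). The metalloproteinase inhibitor TIMP3 had 0 counts in both BT549 EV libraries and 2832 and 3072 in MDA-MB-231 EV, at least 896-fold lower, whereas the BT549 OE libraries had 1774 and 1650.4. PLAT, tissue plasminogen activator, was lower too (4.37 and 1.11 against 367 and 318).

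At the cell surface, 20 of 29 tested glycoproteins and tetraspanins were higher and 8 lower (median 0.99). THY1, a marker of fibroblasts and neurons, had 11501 and 11075 counts in BT549 EV and 0.939 and 1.82 in MDA-MB-231 EV, 4067-fold higher against the floor. CD63, a tetraspanin of endosomes, had 59912 and 59556 against 10691 and 10264 (2.51) and CD47, the signal that restrains phagocytes, 10368 and 10242 against 1569.8 and 1642 (2.68). MCAM (-4.35), SDC3 (-3.06) and PROCR (-2.91) were lower. Of 17 tested integrins 7 were higher and 7 lower (41.2% each), close to the 39.1% and 40.4% of all genes. ITGB5 (1.83), ITGA5 (1.33) and ITGB1 (0.85) were higher, while ITGB4, the beta chain of hemidesmosomes, had 672 and 659.7 against 4026 and 4013 counts (-2.59) and the collagen receptor chain ITGA2 0 and 1.11 against 259 and 261. The leukocyte chain ITGB2 was also lower in BT549 EV (0 and 2.21 against 704 and 641). S100 proteins and annexins, which bind calcium, had 8 of 18 higher and 9 lower (44.4% and 50.0%, beside 39.1% and 40.4% of all genes). ANXA5 (2.10), S100A11 (1.78) and ANXA11 (1.50) were higher and S100A16 (-7.87), ANXA3 (-7.97) and ANXA6 (-2.50) lower.

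The lineage programs of the lines differed in the same samples. Epithelial cells are joined by cadherins, claudins and desmosomes and filled with keratins, and mesenchymal cells replace these under transcription factors such as TWIST1. Of 21 mesenchymal regulators and cadherins, 15 were higher and 5 lower in BT549 EV (median 0.95). TWIST1 had 5220 and 5814 counts and PRRX1 2757 and 2797 in BT549 EV and both were at 0 in MDA-MB-231 EV. CDH2 (N-cadherin) had 1068 and 1098 against 3.76 and 1.82 counts and CDH11 5518 and 5579.6 against 151 and 169.5 (5.11). ZEB1 (0.80) and the intermediate filament VIM (47235 and 47378 against 30600 and 29675, 0.65) were present in both lines and differed less. CDH4 (R-cadherin) was the reverse, at 0 in BT549 EV and 2632 and 2409 in MDA-MB-231 EV, and MSN (-1.66) and LOXL1 (-4.08) were lower.

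Of 33 tested epithelial junction genes and keratins, 8 were higher and 22 lower in BT549 EV (median -2.44). The hair keratin KRT81 was lower in BT549 EV (-6.63), and the simple-epithelium keratins KRT18 and KRT8 were almost absent from it. KRT18 had 6.56 and 5.53 against 8881 and 8659.5 counts (-10.47, adjusted p = 3.06e-28) and KRT8 10.9 and 8.84 against 6994 and 6619.9 (-9.41). Both keratins have many processed pseudogenes that can take their reads. Not every junction gene was lower: CDH3 (P-cadherin) had 3979 and 3786 against 94.8 and 97.5 counts (5.33), CLDN1 1651 and 1607 against 188 and 194 (3.09) and MUC1 702 and 669 against 37.6 and 31.0 (4.32). CDH1 (E-cadherin) was low in both lines at 63.4 and 50.8 against 0 and 3.65 counts. EPCAM was at the floor in BT549 EV (0 and 1.11 against 69.5 and 72.0).

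Positional identity, as carried by the HOX genes, also differed. HOX transcription factors sit in clusters and are switched on in blocks along the body axis. Of 39 listed genes 32 were tested, of which 20 were higher and 4 lower in BT549 EV (median 3.41). HOXC10 had 2056 and 1997 counts against 0 in MDA-MB-231 EV, HOXC8 1095 and 1029.9 against 25.3 and 29.2 (5.28) and HOXC13 1039 and 1132 against 2.82 and 5.47 (7.98). Most of the HOXC cluster was thus on the BT549 side, except HOXC5 (14.2 and 14.4 against 30.0 and 27.3, -1.00), whose call was lost when any 1 of the 4 libraries was left out. HOXC4, HOXC5 and HOXC6 overlap, so their reads may be shared. HOXB9 was the reverse of its cluster with 3.28 and 9.95 against 4374 and 4495 counts (-9.37), and HOXD3 had 1.09 and 0 against 319 and 295 and HOXD4 0 and 0 against 136 and 111. HOXA2 to HOXA7 were at 0 in both groups, while the BT549 OE libraries had 624 and 533 counts of HOXA7. Of 25 cancer-testis antigens, 17 had no row and 8 were tested, of which 3 were higher and 2 lower (2 higher and 2 lower with library size alone). PRAME was higher in BT549 EV (196 and 227 against 0 and 0), and MAGEB2 (3.28 and 4.42 against 3255 and 3354) and XAGE1B (13.1 and 12.2 against 5732 and 5427), whose near-identical copies share reads, were lower.

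Signalling between ligand, receptor and target was examined next. Growth factors bind receptor tyrosine kinases, which act through RAS, RAF, MEK and ERK and through PI3K and AKT. Of 23 tested growth factors, 12 were higher and 9 lower in BT549 EV (52.2% and 39.1%, beside 39.1% and 40.4% of all genes). FGF2 had 3878 and 4269 counts against 2.82 and 0 in MDA-MB-231 EV, and the heparin-binding midkine MDK 24490 and 23547 against 589 and 565 (5.38) with the placental growth factor PGF 3955 and 3954 against 15.0 and 15.5 (8.01). Ligands of EGFR were on the other side. HBEGF had 33.9 and 16.6 against 4161 and 4019.9 (-7.33, adjusted p = 8.24e-25), TGFA 1.09 and 0 against 489 and 555, and AREG 5.46 and 5.53 against 109.8 and 139 (-4.47). The PDGF chains PDGFA (-6.57) and PDGFB (-6.92) were lower as well.

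Receptor tyrosine kinases went both ways, with 18 of 33 higher and 14 lower (median 0.49). The shares were 54.5% and 42.4%, beside 39.1% and 40.4% of all genes. FGFR2 had 1722 and 1807 counts in BT549 EV and 0 in MDA-MB-231 EV, FGFR1 8967 and 8769 against 3571 and 3527 (1.32), the collagen receptor DDR2 3827 and 3780.5 against 12.2 and 21.9 (7.79), and EPHB4 was higher by 2.31. AXL, the GAS6 receptor, had 18546 and 18231 counts in BT549 EV against 58902 and 58117 in MDA-MB-231 EV (-1.67 ± 0.024 SE, adjusted p = 3.17e-25). EPHA2 (-1.02) and EGFR (-0.69) were lower by smaller amounts, and EPHB2 was at the floor in BT549 EV (0 and 0 against 509 and 439). Of the RAS pathway components themselves 12 of 20 were higher and 7 lower (7 higher and 9 lower with library size alone), and none of the 7 was lower by as much as 1 on the log2 scale. NRAS (1.63) and KSR1 (1.73) were among the higher members, and the kinase MAP2K2 (-0.92), PEBP1 (-0.73) and HRAS (-0.73) were among the lower ones. BRAF, mutated in MDA-MB-231, had a log2 fold change of 0.41, and with library size alone it was 0.09 and not called.

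The genes that ERK activity is known to switch on were lower in BT549 EV in 19 of 25 cases and higher in 2 (1 higher and 22 lower with library size alone), with a median of -1.57, against 40.4% lower among all genes. DUSP1, a MAP kinase phosphatase, had 464 and 575 counts against 8865 and 9039.5 (-4.11), and the ERK phosphatase DUSP6 645 and 614 against 2349 and 2204 (-1.85). The cyclin CCND1 had 2027 and 2136 against 8157 and 7954 (-1.95), the RAS inhibitor SPRED2 726 and 707 against 3629 and 3424 (-2.30), and the AP-1 subunit FOSL1 9916 and 9304 against 25689 and 24267 (-1.38). DUSP1, CCND1 and SPRED2 were named as the lower members with the smallest p. That the groups lie apart in them follows from the choice, and 79.5% of all genes tested were called. EPHA4 (3.51) and ETV1 (0.32) were the 2 higher members, of which ETV1 was not called with library size alone.

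In the PI3K list, 13 of 25 genes were higher and 9 lower (9 higher and 14 lower with library size alone). The regulatory subunits PIK3R3 (3.91) and PIK3R1 (2960.2 and 3017 against 273 and 244, 3.53) were higher and PIK3R2 (1381 and 907 against 5885 and 6039, -2.38) lower. The catalytic subunit PIK3CD (-2.28) and the kinase AKT1 (-1.05) were lower, and EIF4EBP1, the translation repressor downstream of mTOR, was higher (0.78).

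Targets of YAP and TEAD, the factors that respond to cell spreading and tension, were lower in BT549 EV in 21 of 23 genes and higher in 2 (median -1.84). The shares were 91.3% lower and 8.7% higher, beside 40.4% and 39.1% of all genes. ANKRD1, a titin-binding protein used as a readout of YAP, had 15.3 and 4.42 counts against 8821 and 8789.8 in MDA-MB-231 EV (-9.78, adjusted p = 1.99e-28). The matricellular CCN1 had 3159 and 3142 against 36957 and 36327 (-3.54) and CCN2 681 and 715 against 7878 and 8166 (-3.52). The tissue factor gene F3 had 13.1 and 6.63 against 3697 and 3878 (-8.56). AXL, above, belongs to the same list. NT5E (18253 and 18214 against 8749 and 9076, 1.03) and ASAP1 (1.19) were higher. The BT549 OE libraries had 2.21 and 1.13 counts of ANKRD1 and 4449.5 and 4350.3 of CCN2, and 21 of the 23 genes were lower there too when set against the same MDA-MB-231 EV libraries.

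The TEAD recognition letters GGAATG, on either strand, stood in the 250 bases before the start in 9 of 18 genes of this list with a window (50.0%), and in 1546 of 11856 tested genes (13.04%). The promoters of 3 of the members named above are given with the matches in capitals, 5′ to 3′ on the strand of the gene.
ANKRD1, chr10:90921185-90921332 (minus strand): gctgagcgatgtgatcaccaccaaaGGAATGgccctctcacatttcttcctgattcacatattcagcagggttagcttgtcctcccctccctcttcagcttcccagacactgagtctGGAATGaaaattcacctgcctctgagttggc
CCN2, chr6:131951437-131951566 (minus strand): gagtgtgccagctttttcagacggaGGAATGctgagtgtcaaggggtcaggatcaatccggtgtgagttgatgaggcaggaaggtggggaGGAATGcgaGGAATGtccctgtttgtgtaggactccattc
AXL, chr19:41226518-41226573 (plus strand): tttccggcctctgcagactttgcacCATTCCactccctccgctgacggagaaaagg
As above, a match describes the letters in this window and measures no binding.

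Contractile and actin genes, many of which respond to serum response factor, were lower in 19 of 29 cases and higher in 9 (median -0.97). The myosin light chain MYL9 had 358 and 353 counts against 6175 and 5948 (-4.09), the non-muscle myosin heavy chain MYH9 6116 and 5931 against 23578 and 22247 (-1.93) and the actin crosslinker ACTN1 3769 and 3654 against 14564 and 13887 (-1.94). Tropomyosin 2 (TPM2) was the reverse with 19988 and 19431 against 181 and 164 (6.84), and TAGLN2 (2.28) and TPM3 (1.04) were higher. In BT549 OE, 19 of the 29 were higher and 9 lower against the same MDA-MB-231 EV libraries, and MYL9 there had 24132 and 22615 counts. The cytoplasmic actins also went opposite ways, ACTB with 289621 and 280534 against 139581 and 135901 counts (1.05) and ACTG1 with 62002 and 60599 against 100166 and 97403 (-0.69), and since they are near-identical in their coding sequence a part of their reads may be shared.

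TGF-beta family genes were higher in 22 of 34 cases and lower in 9 (median 0.76). The BMP-responsive inhibitors ID1 (8570.3 and 8351 against 537 and 517, 4.01), ID2 (2978 and 3141 against 7.51 and 3.65, 9.07) and ID3 (20241 and 19740 against 637 and 668, 4.94) were each higher, and so was BMP7, with 306 and 341 counts against 0. The inhibitory SMADs SMAD7 (5.31) and SMAD6 (1.48) followed. MDA-MB-231 EV had more of the ligand TGFB2 (283 and 304 against 2900.1 and 2882, -3.30), of the antagonists FST (-3.31) and NOG, and of SMAD3 (-1.31).

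The RB and E2F list held the widest differences of the cell cycle genes. Of 28 members, 16 were higher and 11 lower in BT549 EV. Besides CDKN2A and CDKN2B, the related CDK4 inhibitor CDKN2C had 19827 and 19632 counts against 1792 and 1759 (3.47), and the cyclins CCNE1 (1.95) and CCNE2 (2.15), which drive entry into S phase, were higher with E2F2 (4.10). The cyclin D genes were mixed: CCND1 was lower (-1.95), CCND2 had 0 and 0 counts against 380.2 and 396, and CCND3 was higher (1.20). The other cell cycle lists were close to the shares of all genes. Of 38 DNA replication genes 16 were higher and 14 lower (9 higher and 25 lower with library size alone, median 0.10). The polymerase clamp PCNA (9841 and 9966 against 4265 and 4369, 1.20), GINS4 of the replicative helicase (2.26) and RPA2 (1.27) were higher. RPA1, the large subunit of the same single-strand binding complex as RPA2, was lower (-1.25), as were the ribonucleotide reductase RRM1 (552 and 469.7 against 1969 and 1889, -1.92) and thymidylate synthase TYMS (-0.72). Of 35 mitotic genes 17 were higher and 14 lower (11 higher and 20 lower with library size alone, median 0.10). The phosphatase CDC25B (32998 and 33170 against 4578 and 4593, 2.85), which activates CDK1, led the higher members, with FOXM1 (1.08) and survivin, BIRC5 (0.83), and the checkpoint protein BUB3 (-1.54), AURKB (-1.24) and the midzone protein PRC1 (-1.28) were lower. The CDK inhibitor CDKN1A was higher in BT549 EV (4257 and 3999 against 1385 and 1399.8 counts, 1.57).

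The translation machinery differed in its parts. Of 79 cytosolic ribosomal protein genes, 49 were higher and 19 lower in BT549 EV, with a small median of 0.22. RPS6, which lies near the silent stretch of 9p21, was furthest from MDA-MB-231 EV (2.59), and RPL7 (1.24), RPL10 (1.38) and RPL8 (1.00) were also higher, while RPL4 (-0.70), RPL26 (-0.69) and RPL3 (-0.49) were lower. With library size alone in place of TMM, 32 were higher and 41 lower, so the direction of this list depended on the scaling. Of 52 translation factors, 21 were higher and 28 lower (median -0.39). The share higher, 40.4%, was near the 39.1% of all genes, and the share lower was 53.8%, beside 40.4% of all genes. The elongation factor EEF1A1 had 56328 and 55454 counts against 147662 and 148570 (-1.41 ± 0.021 SE, adjusted p = 3.73e-25) and the initiation helicase EIF4A1 25481 and 25053 against 70555 and 72840 (-1.50). The subunits of EIF3 were split: EIF3I (0.98) and EIF3B (1.00) were higher, and EIF3D (-1.69), EIF3F (-1.86) and EIF3A (-1.99) lower. EEF1A1 and many ribosomal protein genes have processed pseudogenes, and reads placed on these are not part of the values.

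Aminoacyl-tRNA synthetases, which charge tRNAs with amino acids, were lower in 16 of 23 cases and higher in 6 (3 higher and 18 lower with library size alone, median -0.53). CARS1 had 605 and 608 counts against 5067 and 5099 (-3.07), TARS1 1664 and 1697 against 7129 and 7189.5 (-2.09) and MARS1 3378 and 3354 against 8731 and 8918 (-1.39). AIMP2 (1.62), WARS1, which interferon induces (0.97), and NARS1 (0.80) were higher. Many synthetases are targets of ATF4, the factor of the amino acid response, and ATF4 itself had 4751 and 4563 against 16446 and 16540 counts (-1.82). Its targets of one-carbon metabolism SHMT2 (1948 and 1842 against 13091 and 13187, -2.79) and MTHFD2 (3804 and 3808 against 17632 and 18066, -2.23), the asparagine synthetase ASNS (-2.77) and the cystine transporter SLC7A11 (-3.20) were lower. The list as a whole was split, with 12 of 28 higher and 15 lower. PHGDH, the first enzyme of serine synthesis, had 1239 and 1195 counts in BT549 EV against 1.88 and 1.82, and CBS, which makes cystathionine, 1811 and 1694 against 0 and 0. The secreted ATF4 target STC2 was higher too (5.29).

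Chaperones of the endoplasmic reticulum and genes of its unfolded protein response, listed together, were higher in 18 of 27 cases and lower in 6 (15 higher and 10 lower with library size alone, median 0.45). CALR is given above, PDIA4 had 8970.2 and 9119 counts against 3014 and 3047 (1.58), DNAJB11 6366 and 6551 against 1995 and 1936 (1.72) and HSPA5 (BiP) 8748 and 8334 against 3296 and 3463 (1.34). Genes of the degradation and sensor arms, EDEM1 (-1.11), HERPUD1 (-1.19) and ERN1 (-1.86), were lower.

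In metabolism, glycolysis genes were lower in 20 of 29 cases and higher in 8 (4 higher and 23 lower with library size alone, median -0.90). The lactate exporter SLC16A3 had 120.2 and 141 counts in BT549 EV against 10651 and 9739 (-6.28 ± 0.070 SE, adjusted p = 2.24e-27), and the glucose transporter SLC2A1 145 and 143 against 3503 and 3622 (-4.63). The other monocarboxylate transporter, SLC16A1, was the reverse with 2789.7 and 2801 against 49.8 and 75.6 (5.47). The groups were thus on opposite sides for these carriers of lactate. NDRG1, a hypoxia gene, was lower (-4.93), whereas VEGFA (1.37) and the aldolase ALDOC (5.00) were higher. Enzymes in the trunk of the pathway were nearer to each other, with ENO1 at 0.24, GAPDH at -0.40 and PKM at -0.35, and with library size alone ENO1 was lower (-0.07). Sterol synthesis genes were higher in 19 of 26 cases and lower in 4 (14 higher and 10 lower with library size alone, median 0.52), among them squalene epoxidase, SQLE (7904 and 7539 against 625 and 665, 3.58), LSS (1.65) and IDI1 (1.67), with ACAT2 (-0.70) and SREBF1 (-0.21) lower.

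All 13 mitochondrially encoded mRNAs were higher in BT549 EV, although with library size alone MT-ND4 was lower (-0.16) (median 0.50). These are translated by mitochondrial ribosomes and not by the cytosolic polysomes that the gradient was meant to collect. MT-CYB had 23449 and 22201 counts against 6897 and 6845 (1.73), MT-CO1 84572 and 83428 against 48907 and 48297 (0.79) and MT-ND4 20201 and 19242 against 17970 and 17506 (0.15). Of 45 nuclear genes of the respiratory chain 16 were higher and 23 lower (6 higher and 34 lower with library size alone, median -0.15), with CYCS (0.95), ATP5PO (0.96) and ATP5PB (0.65) higher and SDHA (-1.54), NDUFA10 (-1.26) and UQCRC2 (-1.50) lower. NRF2 targets and metallothioneins had 17 of 27 higher and 9 lower, among them HMOX1, heme oxygenase, with 11298 and 11023 against 744 and 706 (3.94), PRDX1 (1.07) and AKR1C3 (2.63), and on the other side SLC7A11, MT2A (-1.72) and TALDO1 (-1.52). The enzymes that modify rRNA were balanced (12 of 24 higher, 10 lower, 7 higher and 14 lower with library size alone, median 0.11), with MRM2 (1.66), DKC1 (0.71) and GAR1 (0.96) higher and SNU13 (-1.39), NAT10 (-1.34) and MRM3 (-0.76) lower.

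**Figure D3:**
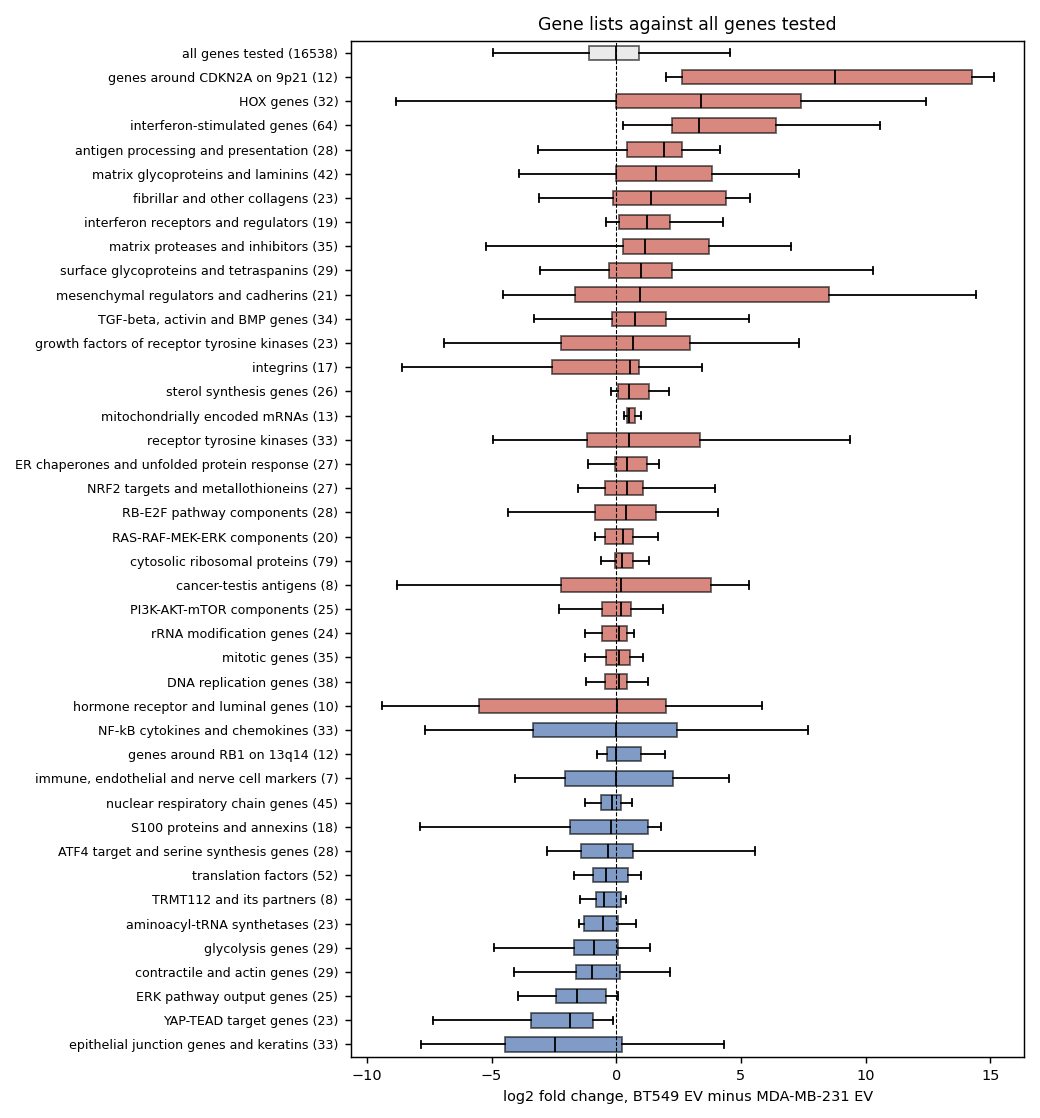
Log2 fold changes (BT549 EV minus MDA-MB-231 EV) of the tested members of the gene lists, 2 of which are not drawn, and of all 16538 genes tested, as boxes of the quartiles with the median and whiskers from the 5th to the 95th percentile, with the number of genes in parentheses. The lists around CDKN2A, of HOX genes and of interferon-stimulated genes lie highest, at medians of 8.79 (5.16 with genes at the floor set to their bound), 3.41 and 3.31, and epithelial junction genes and keratins lowest, at -2.44.

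Outside the lists, the genes with the widest differences were named by size. Among genes detected in both groups, SPON2 (spondin 2), a secreted matrix protein, had 165480 and 157126 counts in BT549 EV against 3.76 and 4.56 in MDA-MB-231 EV (15.20, adjusted p = 1.51e-33). The aminopeptidase ANPEP (CD13) had 10255 and 9793 against 3.76 and 8.20 (10.67), the transcription factor FOXD1 1883 and 1987 against 3.76 and 0.911 (9.63) and the neurotensin receptor NTSR1 3314 and 3341 against 6.57 and 1.82 (9.60). IFI44L (10.59) and ELFN1 (9.64) were of the same order. On the other side LIMCH1, which activates non-muscle myosin, had 3.28 and 5.53 counts in BT549 EV against 10863 and 10316 (-11.19, adjusted p = 5.23e-28). KISS1, the metastasis suppressor that encodes kisspeptin, had 1.09 and 13.3 against 14193 and 14333 (-10.94), and the hematopoietic GTPase RAC2 5.46 and 8.84 against 10706 and 10423 (-10.51). BEX3 (-10.29) and the calcium channel subunit CACNA2D4 (-10.04) were next.

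A further set was detected in a single line at this depth, with a mark in place of an MDA-MB-231 number taken as 0. At most 3 counts in each MDA-MB-231 EV library and a mean of at least 50 in BT549 EV were found for 324 genes, of which 284 were protein coding. GAS1, a hedgehog co-receptor, had 18469 and 21140 counts, the deubiquitinase UCHL1 16870 and 16494, the WNT antagonist SFRP2 12175 and 12134 and the neuropeptide galanin (GAL) 8334 and 8719, and all 4 were at 0 in both MDA-MB-231 EV libraries. The reverse held for 353 genes, of which 295 were protein coding. Among these the monoacylglycerol lipase MGLL had 6475 and 6394 counts in MDA-MB-231 EV against 1.09 and 1.11 in BT549 EV, the lysosomal LAPTM5 3283 and 3138 against 2.19 and 1.11, and OCIAD2 2385 and 2573 against 0 and 1.11. XAGE1A, a copy of XAGE1B, was in the same class. Of the 353 genes, 166 had more than 3 counts in a BT549 OE library, and since a row needs counts in some BT549 library the number of such genes is a lower limit.

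In absolute counts the widest gaps lay in few abundant messages. CTSB, SPON2, CTSL, IFI6 and ACTB are given above, and LY6E, an interferon-inducible surface protein, had 185523 and 179873 counts against 5494 and 5402 (5.07). Of the genes lower in BT549 EV, the chromatin protein HMGA1 had 14871 and 15119 against 47380 and 46711 (-1.65), beside EEF1A1, EIF4A1, AXL, ACTG1 and CCN1. The 10 most counted genes held 7.0% and 6.9% of the counts of the BT549 EV libraries and 4.06% and 4.02% of the MDA-MB-231 EV libraries.

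**Figure D4:**
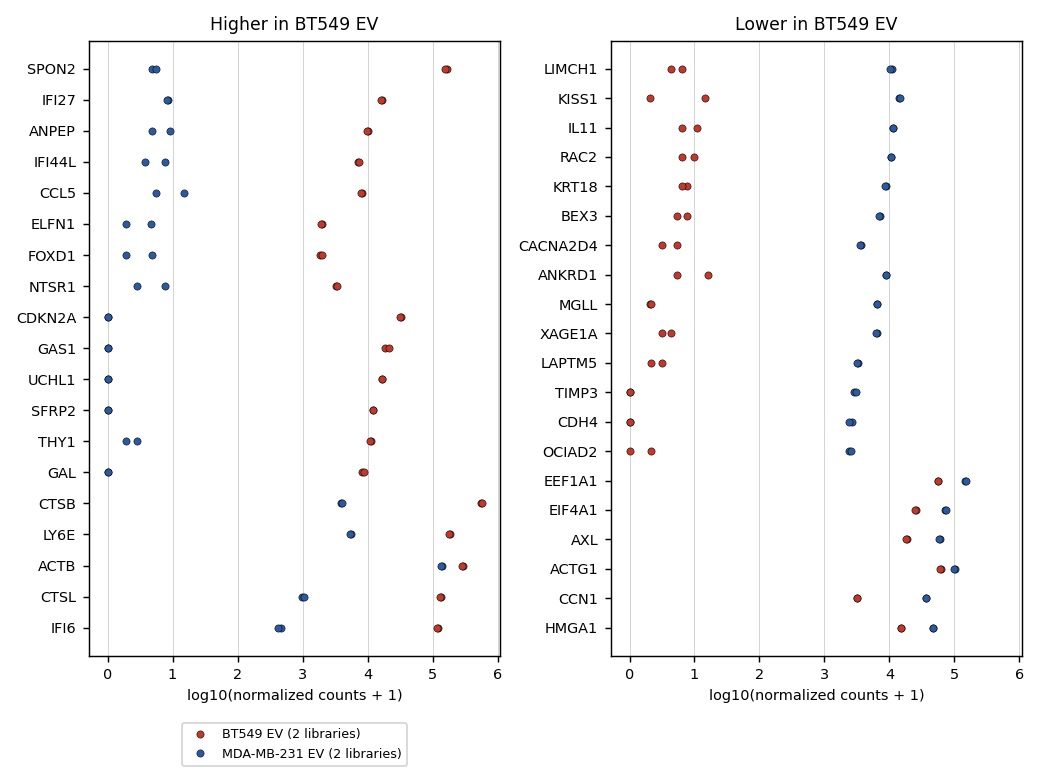
Normalized counts (log10 of the count plus 1) of the genes with the widest differences in each direction, with 2 points for BT549 EV (red) and 2 for MDA-MB-231 EV (blue). The genes were chosen by their difference between these groups, so that the points lie apart follows from the choice. SPON2, for example, stands at 165480 and 157126 against 3.76 and 4.56 counts.

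The choice of transcript within a gene rarely differed. A gene was counted where the transcript with at least 60% of the counts in both libraries of its line had under 20% in the other line, and the reverse for another transcript. This held for 4 of the 6120 genes whose mean count reached 500 in both groups. The choline transporter-like gene SLC44A2 used a transcript of 3374 bases for 90.3% and 87.8% of its counts in BT549 EV, and one of 3301 bases for 86.3% and 85.5% in MDA-MB-231 EV. For the receptor coactivator NCOA7 a transcript of 3133 bases held 82.6% and 80.9% in BT549 EV, and one of 5521 bases held 68.9% and 65.7% in MDA-MB-231 EV. In the ribosomal protein gene RPSA a transcript of 1041 bases held 61.9% and 67.2% in BT549 EV, and one of 1140 bases 93.5% and 94.9% in MDA-MB-231 EV. The kinase inhibitor PKIG was the other gene. These shares were not tested, and they rest on how the deposited counts divided reads among overlapping transcripts.

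Along the genome the differences were grouped by position. Windows of 40 consecutive tested genes had medians between -2.52 and 3.00, and 258 of 402 windows lay within 0.5 of 0. The highest was the window of chromosome 9 that holds the silent stretch of 9p21 (chr9:15464066-32573184), where 36 of 40 genes were higher in BT549 EV. The lowest lay on chromosome 2 (chr2:70301451-74421619), where 37 of 40 genes were lower, among them, chosen after their values were seen, the chaperonin subunit CCT7 (4136 and 4259 against 27645 and 28168, -2.73), the dynactin subunit DCTN1 (-2.30), MTHFD2 and TGFA. In BT549 OE, set against the same MDA-MB-231 EV libraries, the median of this window was -2.02. Chromosome 8 stood out as a whole, with 397 of 605 tested genes higher and 118 lower (median 0.96), and CTSB, LY6E and RPL8 lie on it. Chromosome 2 had 255 of 1083 higher and 652 lower (median -0.66), and chromosome 15 127 of 544 higher and 291 lower (median -0.42). In BT549 OE, set against the same MDA-MB-231 EV libraries, window medians were mostly above 0 on chromosome 8 and below 0 on chromosome 2. Those of chromosome 15 were mostly above 0 there, unlike BT549 EV. The window chr15:78759206-82991057, for example, had -1.04 in BT549 EV and 0.13 in BT549 OE. No test was made of these medians, and copy number was not measured in the series, so its part in them was not tested.

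**Figure D5:**
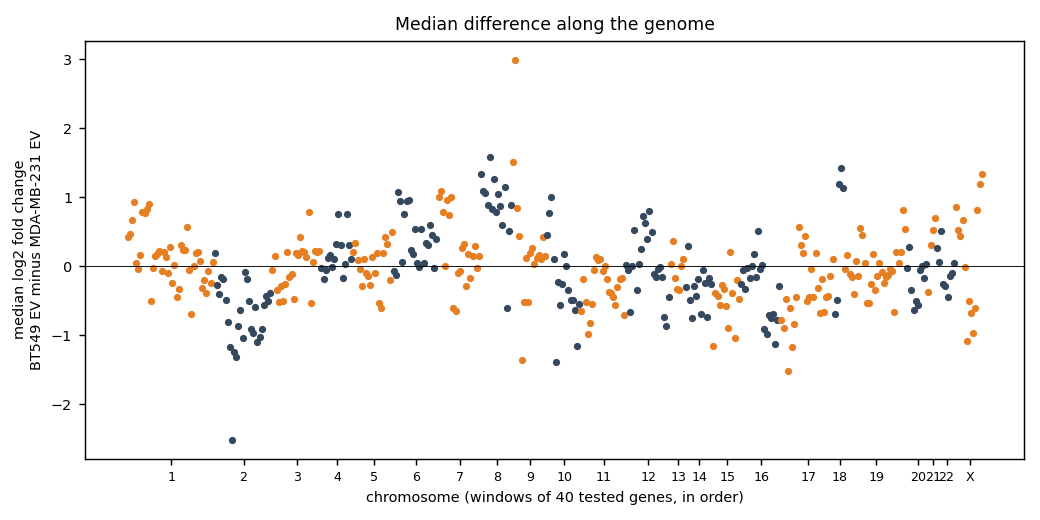
Median log2 fold change (BT549 EV minus MDA-MB-231 EV) of 402 windows of 40 consecutive tested genes, in order along each chromosome. Most points lie within 0.5 of 0, the window on chromosome 9 with CDKN2A reaches 3.00, and a window on chromosome 2 falls to -2.52.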

How the data were processed

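The series holds 12 libraries of polysome-associated RNA, and the sample labels put 2 of them in each of 6 groups. Per the labels and the methods of the study, the authors used Trimmomatic for trimming, HISAT2 for alignment to GRCh38, SAMtools for removing duplicates, and Partek. The counter, the annotation behind it and its strand setting are not given in the sources used here, and the labels and the methods name different library kits (poly(A) selection, and a stranded kit after rRNA depletion). The deposited table holds expected counts per transcript, which are not normalized. In 5.08% of its rows the MDA-MB-231 and SUM159 cells hold a mark in place of a number, and these were taken as 0 (0.149% of BT549 EV counts). No column of per-sample values was left unused.

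Transcripts were matched to GENCODE 44 (79.6%), summed per symbol and rounded. Genes passing filterByExpr were tested with edgeR 4.0.16 (quasi-likelihood, TMM, R 4.3.3) in 1 model with a mean for each of 6 groups, which left 6 residual degrees of freedom, and called at a Benjamini-Hochberg adjusted p of 0.05. The floor was set at 3 counts, the upper limit for a count of 0, and where no library of a group passed that floor, its folds were taken against it. They are bounds where both libraries held 0, which covers counting error only. With counts above 0 in such a group, they are not strict bounds. Simulated counts of 14695 genes with 200 changed, drawn with the spread of the real fit, were tested in the same way. Of the changed genes 91.5% were recovered, and 8.50% of calls were of genes not changed, more than the threshold aims at. Far fewer genes differed there than the 79.5% called here, so the simulation cannot show the error share or the scaling at that extent. Library totals of 22954226 to 27434677 set the precision. Tables and figures were made in Python 3.11.15 (numpy 2.4.6, pandas 2.3.3, matplotlib 3.10.9).

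The comparison of these 4 libraries and the 43 gene lists, written from general knowledge, were chosen with earlier results of these data known. Named genes were, in each direction, the 8 called protein-coding genes with the largest log2 fold change among those above the floor in both groups with a mean of at least 500 in the higher one, the 6 most abundant at the floor in the other group, the 6 with the largest difference of means, the 3 members of each list with the smallest p, TRMT112 and its partners, the label check genes, and other list members where their list is described. Values of a few such genes and of 2 lists were left out of the text. Alternatives were RLE size factors, library size alone, DESeq2 1.42.0 (Wald test), testing unfiltered genes, a minimum mean of 50 counts, the replicate number as block, the 4 libraries alone, single transcripts, calls restricted to a log2 fold change of 1, leaving out each library and, chosen after seeing the data, the fit without marked transcripts.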

Additional observations from a re-analysis of the deposited data

How the results depend on the processing

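With 2 libraries per group and no labels of separate cultures, p-values cover library spread alone. mRNAs absent from BT549 were not listed, and ribosome loading was not separated from mRNA amount. The 6463 higher and 6689 lower calls became 6532 and 6613 under RLE size factors, 5099 and 8196 with library size alone, 6328 and 6320 under DESeq2, 6641 and 6815 with no filter, 5416 and 5562 with a mean of at least 50 counts, 6295 and 6495 from the 4 libraries alone, 6366 and 6675 without the marked transcripts, 6183 to 6244 and 6323 to 6380 when 1 library was left out, 11254 and 11623 for transcripts as listed, and 3557 and 3957 with a log2 fold change of at least 1 added. When leaving out a library left 1 in a group, the lone library was assumed to vary like the other groups. The replicate numbers did not pair the libraries (correlation of deviations 0.02), and a replicate block gave 6421 and 6624 calls.

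Of 1032 list counts under the alternatives, 999 were within 1.5 times the value reported. With library size alone, the members higher became 1 for ERK output, 7 for RAS, 9 for replication, 11 for mitosis, 32 for ribosomal proteins, 1 for TRMT112 and its partners, 7 for rRNA modification, 3 for synthetases, 6 for nuclear respiratory genes and 4 for glycolysis, and the members lower became 6 for interferon receptors, 14 for PI3K, 25 for replication, 41 for ribosomal proteins, 10 for ER chaperones, 1 for mitochondrial mRNAs and 10 for sterol synthesis. With a mean of at least 50 counts, fewer genes were tested, and 2 antigen presentation, 3 luminal, 10 NF-kB and 2 HOX genes were lower, 5 epithelial genes were higher, and the immune, endothelial and nerve markers had 0 higher and 1 lower. That list had 1 member higher with library size alone, under DESeq2, with no filter, with the replicate block, from the 4 libraries alone and without the marked transcripts, and 1 to 2 when 1 library was left out.

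List medians relative to all genes changed sign for 7 lists near 0 or small in number. Integrins became -0.497 with a mean of at least 50, and ranged from -0.389 (without BT549 EV library 2) to 0.627 with 1 library left out, with -0.0292 without MDA-MB-231 EV library 2. The immune, endothelial and nerve markers became -0.0038 under DESeq2, -0.0138 with no filter, -0.0106 from the 4 libraries alone, -0.0707 with a mean of at least 50, -0.0012 with the replicate block, and -0.0044 (without MDA-MB-231 EV library 1) to 0.0806 with 1 library left out. Receptor tyrosine kinases became -0.0870 with a mean of at least 50. NF-kB genes became -0.105 from the 4 libraries alone, and ranged from -0.234 (without BT549 EV library 1) to 0.0369 with 1 library left out, with -0.104 without MDA-MB-231 EV library 2. From the 4 libraries alone S100 proteins and annexins became 0.148 and cancer-testis antigens -4.150. The genes around RB1 became -0.0336 with a mean of at least 50, and ranged from -0.0292 (without BT549 EV library 1) to 0.363 with 1 library left out. Among named genes, ENO1 became -0.0747, IFITM3 -0.0411 and MT-ND4 -0.162 with library size alone, and PKIG became -2.44 and SREBF1 0.26 for the transcripts as listed, where a leading transcript stands for the gene. The cause of the other changes was not tested.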
